A study of Mus musculus with 8 samples.

Results

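The brush border enzymes and carriers that complete protein digestion and take up its products were followed in the jejunal mucosa of mice lacking FFA2, the free fatty acid receptor encoded by Ffar2, in adipocytes. The set holds 9 genes: the peptidases Anpep, Enpep, Dpp4, Ace, Mep1a and Mep1b, the trypsinogen-activating protease Tmprss15, the peptide transporter Slc15a1 and the amino acid transporter Slc6a19. They were chosen by symbol, and all 9 were found among the 56980 gene identifiers counted and passed the filter on low counts that left 15986 tested genes. Adipoq-F2-KO mice (the knockouts) carried floxed FFA2 alleles and an adiponectin-driven Cre, and the floxed controls (FFA2 fl/fl) carried the same alleles without Cre. All mice were males. They shared cages and chow until 12 weeks of age, and were then given a Western diet with 10% fructooligosaccharides for 2 weeks at thermoneutrality, so both genotypes received the diet, the fiber and the warm housing. Poly(A) RNA from scraped jejunal mucosa was sequenced in 4 libraries per genotype. The deletion was directed at adipocytes, so a jejunal library reports on a tissue in which the Cre driver is not meant to act.

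Dietary protein reaches the jejunum as oligopeptides cut by pancreatic proteases, which are themselves switched on when enteropeptidase, the product of Tmprss15, activates trypsinogen. Peptidases anchored in the microvillus membrane then trim these peptides from either end or internally. Di- and tripeptides enter the enterocyte through the proton-coupled carrier PEPT1 (Slc15a1), and free neutral amino acids through the sodium-coupled carrier B0AT1 (Slc6a19).

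None of the 9 genes passed a BH-adjusted p of 0.05 between the genotypes (DESeq2, adjusted p = 0.9998 for each), where 6 of all tested genes, or 0.0375%, did. At an unadjusted DESeq2 p below 0.05 there was 1 member, Slc6a19, which was lower in knockouts at 0.827 times the control level, where 3.03% of all tested genes passed in either direction and 1.38% were lower. Tmprss15 had the largest fold change, 1.81 times the control level, and did not pass either threshold. The 4 knockout values lay wholly to one side of the 4 control values at 0 of the 9 genes, where 2.12% of tested genes showed such a separation. The median log2 fold change of the 9 genes was −0.06, with 3 above and 6 below zero, beside −0.01 over all tested genes. The mean score of the set ran the other way, from −0.01 in controls to 0.01 in knockouts, so no common direction is given.

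The libraries held 6007654 to 21712776 counts. Floxed library 3 and knockout libraries 3 and 4 had fewer than 10000000 counts and are called shallow, and the other 5 deep. All 13 villus enterocyte markers were expressed in every library, with a summed level of 69986 to 83213 TPM (counts per exon length, scaled to one total in each library) in controls and 71360 to 81267 in knockouts, and their score (log2 CPM centred across libraries and averaged over the list) ran from −0.17 to 0.11. Of 11 pancreas genes 1 passed the filter. The smooth muscle markers, all 12 of which were tested, differed most between libraries. Their summed level ran from 116 to 2022 TPM in controls and from 134 to 708 TPM in knockouts. Floxed library 3 had the highest score, 3.15, where the other 7 were spread from −2.44 to 1.67. The score of the distal small intestine markers was higher in the 3 shallow libraries (0.24 to 0.52) than in the 5 deep ones (−0.36 to 0.00). Ffar2 itself had 2 to 18 reads per library in controls and 3 to 13 in knockouts, with a log2 fold change of 0.18 (SE 0.56; DESeq2, adjusted p = 0.9998), which does not check a deletion made in adipocytes.

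Levels of different genes were compared per transcript length. Anpep was the most abundant of the set at 8524 ± 1401 TPM (SD, n = 8 libraries) and ranked 15 among all tested genes. Ace followed at 2535 ± 446 TPM, Enpep at 1572 ± 163 TPM and Mep1b at 1485 ± 80.6 TPM. Enpep lay above Mep1b in 6 of the 8 libraries and their ranges overlapped, so these neighbours did not differ beyond their spread. Slc15a1 reached 874 ± 175 TPM and Dpp4 771 ± 85.8 TPM, again with overlapping ranges and with Slc15a1 higher in 6 of 8 libraries. Slc6a19, at 568 ± 112 TPM, lay below Dpp4 in 8 of 8 libraries although their ranges across libraries overlapped. Mep1a stood well under its partner subunit at 141 ± 55.2 TPM. Tmprss15, whose main site is the duodenum, was the lowest at 7.27 ± 3.90 TPM, rank 8588. Together the 9 genes took 2.33% ± 0.283 of all counts in controls and 2.21% ± 0.149 in knockouts (SD, n = 4 each), and Anpep alone made up 48.0% ± 4.35 and 48.9% ± 3.86 of that sum.

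**Figure D1:**
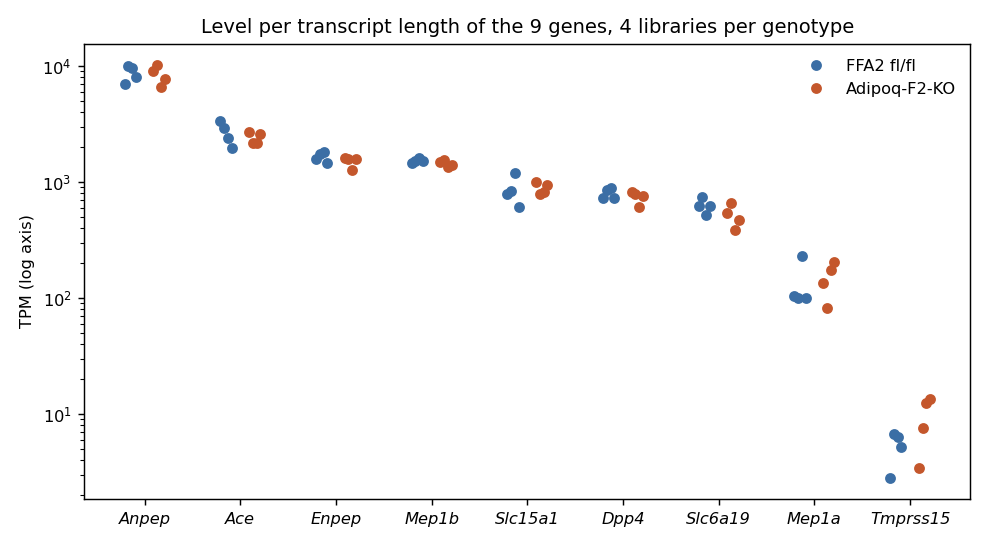
TPM on a log axis for each of the 9 genes, with 1 point per library (4 floxed controls in blue, 4 Adipoq-F2-KO in orange), ordered by mean level. Anpep sits at the top (8524 TPM), Mep1a at 141 TPM and Tmprss15 at the bottom (7.27 TPM), and the genotypes intermingle at every gene.

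Aminopeptidases remove residues from the free amino end of a peptide. Anpep (aminopeptidase N, ENSMUSG00000039062, chr7:79821803-79861059 of GRCm38, minus strand) had normalized counts, that is counts divided by the library's size factor, of 100218, 146473, 162967 and 126972 in floxed libraries 1 to 4. In knockout libraries 1 to 4 they were 136228, 137261, 113222 and 129596. The controls held both the lowest and the highest value, and the 4 knockout values fell inside the control range. The means were 134158 ± 26989 and 129077 ± 11102 (SD, n = 4) for a log2 fold change of −0.06 (95% interval −0.36 to 0.25; DESeq2, unadjusted p = 0.718). Enpep (aminopeptidase A, which prefers acidic residues, ENSMUSG00000028024, chr3:129269175-129332720, minus strand) had normalized counts of 25477, 28792, 34703 and 26382 in controls and 27540, 24200, 24648 and 30092 in knockouts. Here 2 knockout libraries lay below all controls and the other two among them. Its log2 fold change was −0.12 (95% interval −0.37 to 0.14; DESeq2, unadjusted p = 0.371).

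Other peptidases of the same membrane release residues in pairs. Dpp4 (ENSMUSG00000035000, chr2:62330073-62412231, minus strand), which cuts after proline or alanine and also inactivates incretin hormones, had normalized counts of 15923, 19068, 22886 and 17601 in controls and 18778, 16157, 15995 and 19627 in knockouts. All knockout values lay within the control range. This gave a log2 fold change of −0.10 (95% interval −0.36 to 0.17; DESeq2, unadjusted p = 0.474). Ace (angiotensin-converting enzyme, ENSMUSG00000020681, chr11:105967945-105989964, plus strand), which takes dipeptides from the carboxyl end and is also made by endothelium, had normalized counts of 60965, 54250, 52070 and 40008 in controls. In knockouts they were 52480, 37297, 47851 and 55951. The ranges overlapped, with 1 knockout library below all controls. Its log2 fold change was −0.10 (95% interval −0.42 to 0.22; DESeq2, unadjusted p = 0.549). The endothelium and pericyte score differed widely within both genotypes, from −1.39 to 1.45 in controls and from −1.46 to 1.54 in knockouts, and its part in the Ace values was not tested. Antisense genes shared 232 exonic bases with Dpp4 and 295 with Ace. They held 826 counts beside 164424 for Dpp4 and 188 beside 460454 for Ace over the 8 libraries, and because the strand setting of the counting is not given in the sources used here, reads of a gene and its antisense partner cannot be told apart.

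Meprins are metalloendopeptidases built from alpha and beta subunits, of which the beta subunit carries the membrane anchor. Mep1b (ENSMUSG00000024313, chromosome 18, plus strand) was the steadiest gene of the set, its highest normalized count being 1.31 times its lowest. The values were 13207, 14065, 17277 and 15097 in controls and 14317, 13175, 14657 and 15149 in knockouts, and the log2 fold change was −0.06 (95% interval −0.27 to 0.15; DESeq2, unadjusted p = 0.591). Mep1a (ENSMUSG00000023914, chr17:43474324-43502812, minus strand) spread far more, with a highest value 3.56 times the lowest. Floxed libraries 1 to 4 had normalized counts of 1256, 1211, 3275 and 1326, and knockout libraries 1 to 4 had 1699, 919, 2507 and 2878. The 3 shallow libraries, 1 control and 2 knockouts, held the 3 highest values (2507 to 3275, against 919 to 1699 in the deep libraries), which are also the libraries with the highest distal marker score, and the part of depth or of the level along the intestine was not tested. For Mep1a the log2 fold change was 0.18, and its wide 95% interval, from −0.76 to 1.12 (DESeq2, unadjusted p = 0.706), held a 2-fold rise. Mep1a and Mep1b correlated at r = 0.81 over the 8 libraries.

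**Figure D2:**
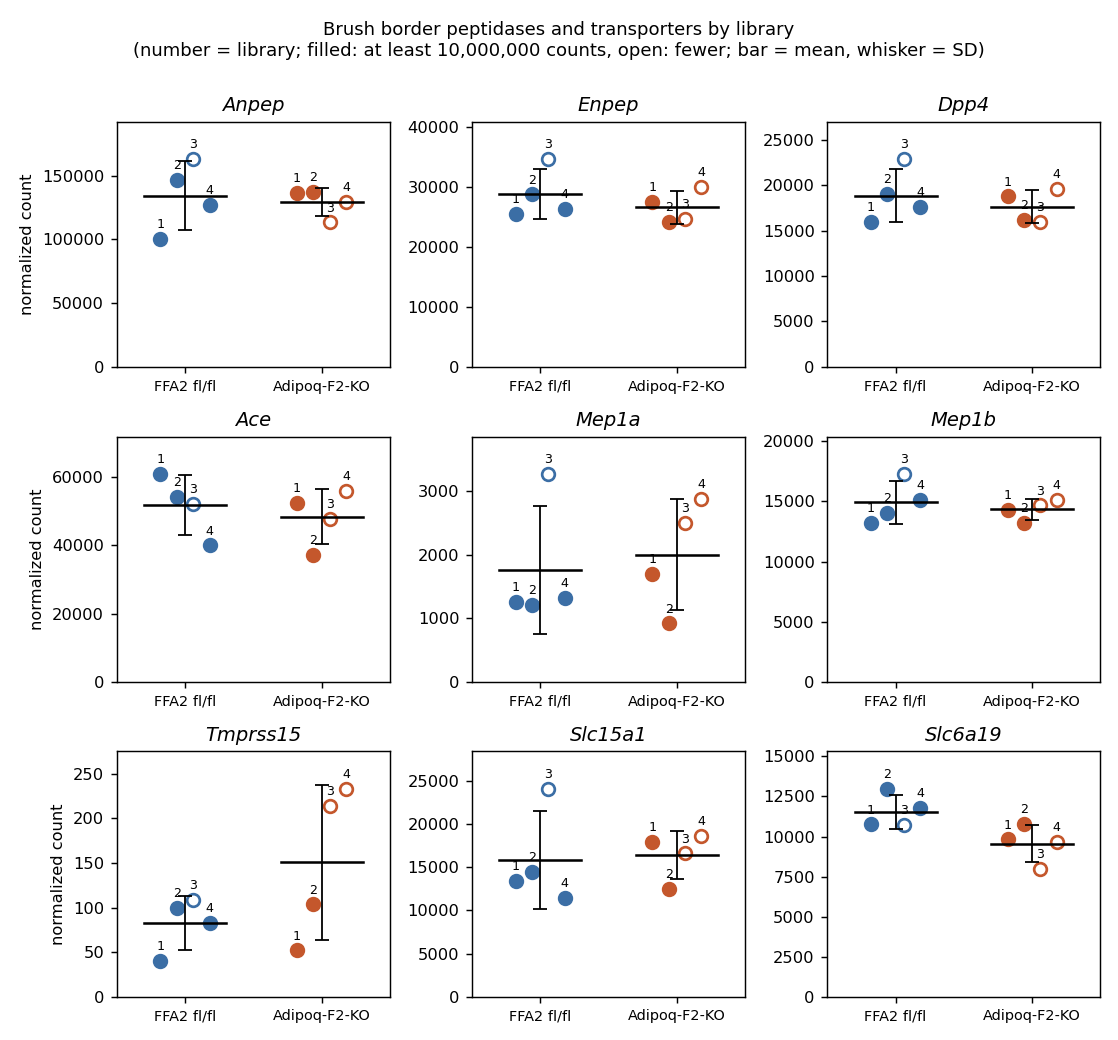
Normalized count of each of the 9 genes in each library (vertical axes from 0), floxed controls in blue and Adipoq-F2-KO in orange, with the library number at each point, filled symbols for the 5 deep and open symbols for the 3 shallow libraries, and mean and SD in black. The genotypes overlap in every panel. The open symbols are the highest for Mep1a (2507 to 3275) and for Tmprss15 (108.7 to 233.1), and in the Slc6a19 panel 3 of 4 Adipoq-F2-KO points lie below all controls.

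Enteropeptidase stands upstream of the luminal proteases. Tmprss15 (ENSMUSG00000022857, chr16:78953008-79091097, minus strand) was counted with only 52 to 190 reads per library. After normalization the controls had 40.6, 100.1, 108.7 and 82.8 counts and the knockouts 52.1, 103.5, 214.2 and 233.1. Knockout libraries 3 and 4, both shallow, lay above all controls, and the other two lay within the control range. The means were 83.1 ± 30.3 and 150.7 ± 87.1 (SD, n = 4), and the log2 fold change of 0.85 (SE 0.44, 95% interval −0.01 to 1.72) did not pass either threshold (DESeq2, unadjusted p = 0.0533, adjusted p = 0.9998). With the 5 deep libraries alone the log2 fold change was 0.06 (DESeq2, unadjusted p = 0.895), so the difference rested on the shallow libraries. Across 18 alternative analyses it ran from 0.06 to 1.15, and the unadjusted p fell below 0.05 in 8 of them.

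The neutral amino acid carrier had the lowest unadjusted p of the set. Slc6a19 (ENSMUSG00000021565, chr13:73679745-73704865, minus strand) had normalized counts of 10758, 12971, 10701 and 11783 in controls and 9817, 10765, 7974 and 9673 in knockouts. It was below all controls in 3 of 4 knockout libraries, and the remaining one, library 2, exceeded 2 controls by a small margin. The means were 11553 ± 1068 and 9557 ± 1161 (SD, n = 4). A log2 fold change of −0.27 resulted (SE 0.12, 95% interval −0.51 to −0.04), and it was not significant after adjustment over all tested genes (DESeq2, unadjusted p = 0.0222, adjusted p = 0.9998). The value stayed between −0.34 and −0.20 under the 18 alternatives. The unadjusted p was below 0.05 in 14 of these. In the deep libraries alone the log2 fold change was −0.21 (DESeq2, unadjusted p = 0.113), and the DESeq2 p also exceeded the threshold without floxed library 2 (0.0967), floxed library 4 (0.0562) or knockout library 3 (0.0758). The lowest adjusted p of any alternative was 0.406, without floxed library 3. In bulk mucosa, fewer cells that express a gene and less of its RNA per cell cannot be told apart, and the villus enterocyte markers had a median log2 fold change of 0.01.

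The peptide carrier Slc15a1 (ENSMUSG00000025557, chr14:121459621-121505252, minus strand) spread more between libraries, with a highest normalized count 2.11 times its lowest, beside 1.63 for Slc6a19. The controls had normalized counts of 13454, 14451, 24084 and 11422, and the knockouts 17924, 12497, 16618 and 18650. Floxed library 3 was the highest of all, above every knockout library, and the other 3 controls were all below 3 of the 4 knockout values. The log2 fold change was 0.05 (95% interval −0.39 to 0.49; DESeq2, unadjusted p = 0.820). Without floxed library 3, which had the highest smooth muscle score, it was 0.32 (DESeq2, unadjusted p = 0.0346). The sign turned without floxed library 1 (−0.02), floxed library 4 (−0.08) or knockout library 4 (−0.02).

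**Figure D3:**
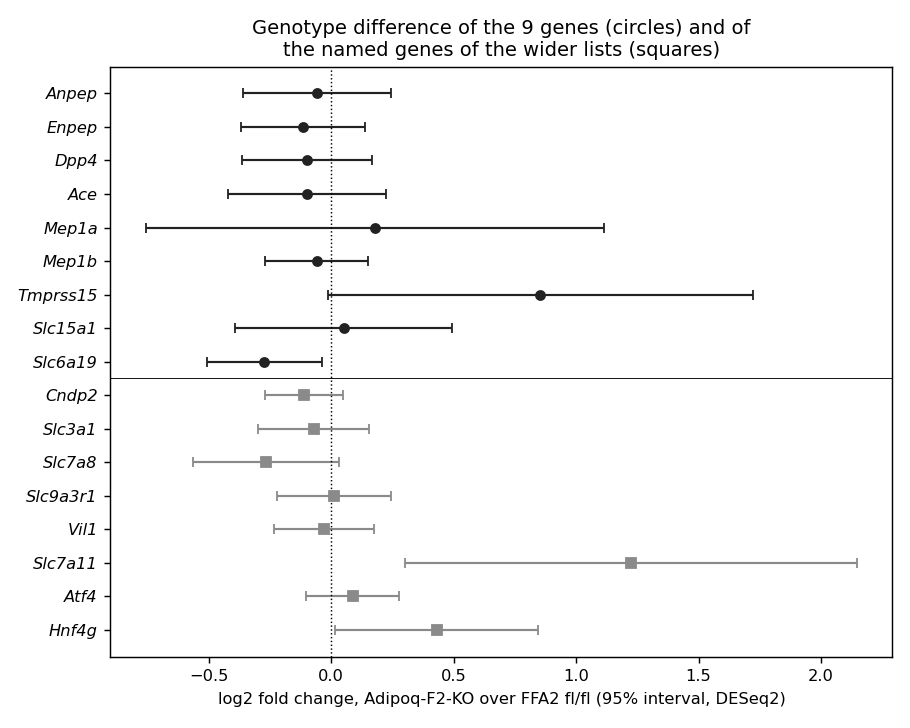
DESeq2 log2 fold change of Adipoq-F2-KO over floxed controls with its 95% interval for the 9 genes (circles) and for the named genes of the wider lists (squares). Among the 9 genes the interval leaves out 0 only for Slc6a19 (−0.51 to −0.04), and it is widest for Mep1a and Tmprss15. Slc7a11 and Hnf4g lie above 0 among the wider lists, and none of the points shown passed the adjusted threshold.

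The promoters of Tmprss15 and Slc6a19, which had the largest fold change and the lowest unadjusted p of the set, are shown as the 250 bases before the transcription start in RefSeq (GRCm38.p6), read on the minus strand from 5′ to 3′. They are chr16:79091098-79091347 for Tmprss15 and chr13:73692637-73692886 for Slc6a19, and the latter lies inside the span that the GENCODE M21 annotation gives the gene. Capitals mark letters that match a searched motif of an enterocyte regulator.
Tmprss15: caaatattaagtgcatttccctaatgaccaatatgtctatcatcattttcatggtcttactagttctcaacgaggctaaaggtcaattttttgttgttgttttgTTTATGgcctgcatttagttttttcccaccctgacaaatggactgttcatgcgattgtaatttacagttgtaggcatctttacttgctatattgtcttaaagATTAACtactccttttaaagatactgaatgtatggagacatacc
Slc6a19: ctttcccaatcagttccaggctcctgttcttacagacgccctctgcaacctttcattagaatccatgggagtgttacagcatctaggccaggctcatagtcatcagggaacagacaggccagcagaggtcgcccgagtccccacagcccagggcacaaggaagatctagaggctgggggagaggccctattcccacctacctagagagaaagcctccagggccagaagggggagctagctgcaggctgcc
The motifs searched on both strands were GTTAAT for the core of an HNF1 site, CAAAGTCCA for HNF4, TTTATG for CDX and AGATAA for GATA factors. Tmprss15 held TTTATG starting at position −146 and the HNF1 letters on the other strand at −44, where the printed strand reads ATTAAC. Slc6a19 held none of the 4. Of 32851 promoters of this length, 6.43% held GTTAAT, 0.384% CAAAGTCCA, 10.8% TTTATG and 9.99% AGATAA. Promoters were matched for 8 of the 9 genes, Mep1b being the one without an entry. Among the others Dpp4 held AGATAA at −32, and Anpep, Enpep, Ace, Mep1a and Slc15a1 held none of these letters. Ace had entries at chr11:105967698-105967947 and chr11:105974939-105975188, neither with a match. The latter Ace entry and the Anpep entry (chr7:79848211-79848460) also lie inside the GENCODE M21 spans of their genes. The promoters differed in composition, from 34.0% G and C for Tmprss15 to 72.8% for Anpep, beside a median of 52.4% over all promoters. A match of letters is not a binding site.

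The genes varied together in part. Enpep and Dpp4 moved almost in step across the 8 libraries (Pearson's r of log2 normalized counts 0.98), followed by Mep1a with Slc15a1 (0.87) and Dpp4 with Mep1b (0.82). Of the 36 pairs 14 had r above 0.5. Slc6a19 went its own way, with a negative r in 5 of its 8 pairs, the lowest with Mep1a (−0.56) and Tmprss15 (−0.45). These coefficients describe 8 libraries that also differ in depth and tissue composition, and the part of either in them was not tested. Floxed library 3 held values above the 8-library mean at 9 of 9 genes, and floxed libraries 1 and 4 at 2 of 9 each. In knockout libraries 1 to 4 the number was 4, 3, 4 and 7. The mean of the 9 was not a profile shared by all of them, since their own r with it ran from −0.27 (Slc6a19) to 0.90 (Mep1a). Outside the set, the genes whose values most resembled this mean were Mylip (r = 0.99), Ift81, Sntb1, Orc2 and Mitf (r = 0.97 for the last). Of the 50 most similar genes 1, the membrane aminopeptidase P gene Xpnpep2 (r = 0.95), belonged to the wider lists described next.

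**Figure D4:**
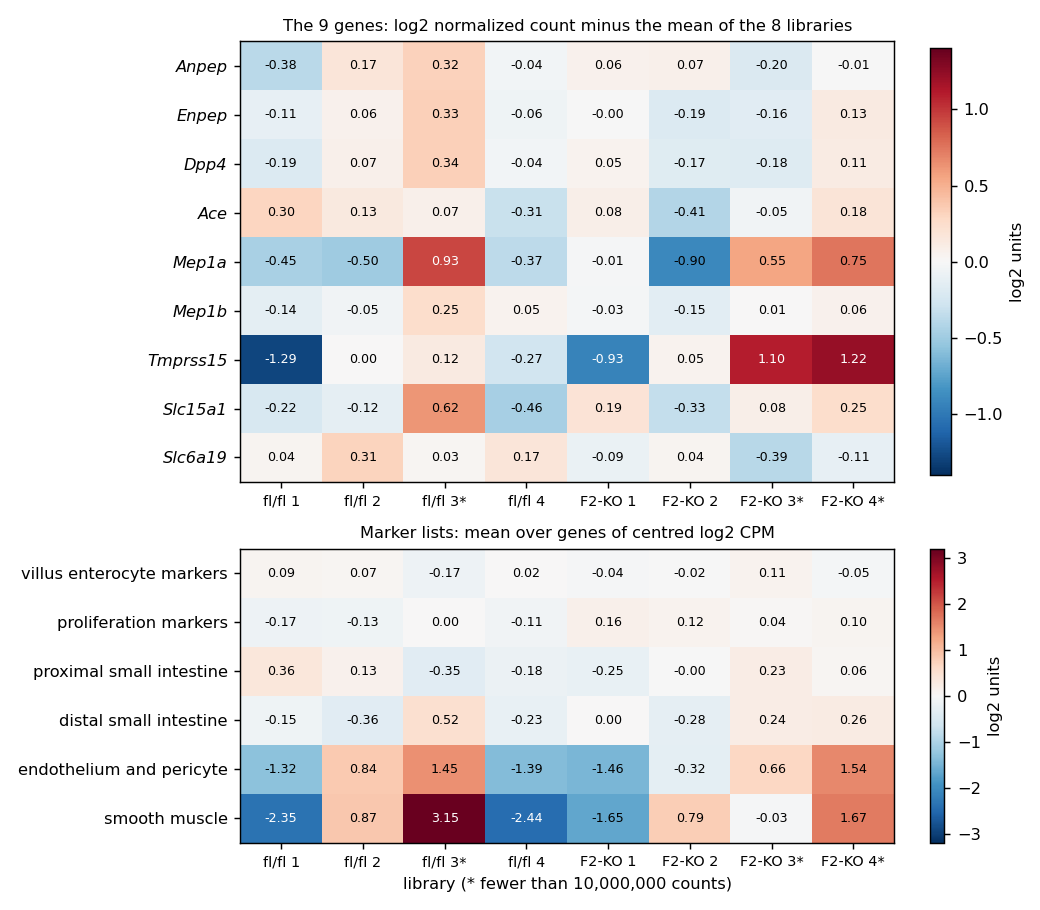
Top, log2 normalized count of each of the 9 genes minus its mean over the 8 libraries. Bottom, marker list scores of the same libraries in log2 units, with asterisks at the shallow libraries. Floxed library 3 is above the mean at 9 of 9 genes and has a smooth muscle score of 3.15, and the 3 shallow libraries have the 3 highest distal scores (0.24 to 0.52).

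The wider lists gave no gene past the adjusted threshold. At the unadjusted threshold their counts stand beside 3.03% of all tested genes, and a count of 0 in a list of this size says nothing particular to the list. Of 13 other membrane peptidases tested, 0 passed an unadjusted p of 0.05 in DESeq2, and their median log2 fold change was −0.01. The separation of the genotypes was complete at 1 gene of this list, Dpep1, a membrane dipeptidase gene singled out after its values were known, with 4497 ± 260 in controls and 4045 ± 157 in knockouts (log2 fold change −0.15; DESeq2, unadjusted p = 0.0521), where 1.02% of tested genes separated in this direction. The 16 cytosolic peptidases, which finish the absorbed peptides inside the cell, had 0 genes past the unadjusted threshold, a median of 0.01, and in Cndp2, the most abundant, a log2 fold change of −0.11 (DESeq2, unadjusted p = 0.172).

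Of the further amino acid transporters, 0 of 8 apical and 0 of 8 basolateral genes passed the unadjusted threshold in DESeq2, beside 3.03% of all tested genes. The 8 apical ones had a median log2 fold change of 0.02, and Slc3a1, the heavy subunit of the cystine and dibasic amino acid carrier, one of −0.07. Slc6a20a and Slc6a20b, close paralogs whose reads the counting could split, are uncertain. The 8 basolateral ones, which pass amino acids on to the blood, had a median of −0.09 with 5 below zero. Slc7a8, the light subunit of a neutral amino acid exchanger and the most abundant of them, had normalized counts of 8701, 8599, 5560 and 7848 in controls and 6721, 6388, 6805 and 5668 in knockouts. Only floxed library 3 kept the groups from separating. For Slc7a8 the log2 fold change was −0.26 (SE 0.15; DESeq2, unadjusted p = 0.0816, adjusted p = 0.9998), and without floxed library 3 it was −0.39 and passed the adjusted threshold (DESeq2, adjusted p = 0.0237), as did 103 genes in all where 6 did with every library. It passed under this alternative only of the 18, and the smallest estimate was −0.20, without floxed library 1 (DESeq2, unadjusted p = 0.225).

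Partners and scaffold of the brush border showed medians near zero. Among 4 tested partners the median was −0.02, and the scaffold protein Slc9a3r1 had a log2 fold change of 0.01. Cltrn, which encodes collectrin, a partner of Slc6a19 in the kidney, had 0 to 4 reads per library and was not tested. The 12 genes of microvillus structure had a median of −0.02, with Vil1, the actin bundler villin, at −0.03. The 12 tested genes of glutamine and citrulline metabolism had a median of 0.01. In each of these 3 lists 0 genes passed the unadjusted threshold in DESeq2, again beside 3.03% of all tested genes.

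The genes that respond to amino acid shortage had a higher median, 0.33, with 9 of 12 above zero and 1 past the unadjusted threshold. The median rested on knockout library 2, whose list score was 0.51, while the other 3 knockouts ran from −0.08 to 0.04 and the controls from −0.20 to 0.03. Without that library the median was 0.06, with 7 of 12 above zero. Slc7a11, the cystine/glutamate exchanger, had few reads, with normalized counts of 10.9, 14.8, 16.7 and 6.96 in controls and 12.6, 30.4, 38.0 and 33.8 in knockouts. It was above all controls in 3 of 4 knockout libraries, with a log2 fold change of 1.22 (SE 0.47; DESeq2, unadjusted p = 0.00942, adjusted p = 0.9998). In the deep libraries it was 0.98 (DESeq2, unadjusted p = 0.141), and the gene dropped out where 10 counts were required in all 8 libraries. Atf4, the transcription factor at the head of this response and the most abundant of the list, had a log2 fold change of 0.09 (DESeq2, unadjusted p = 0.360). The macrophage markers had a median of 0.61, with 9 of 9 above zero and summed levels of 22.7 to 84.3 TPM in controls and 61.0 to 103 TPM in knockouts, and their part in the Slc7a11 values was not tested. The share of higher calls, 1 of 12, stands beside 1.65% of all tested genes.

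Of 12 transcription factors of enterocyte identity, 1 passed the unadjusted threshold and was higher, where 1.65% of all tested genes were, and the median was 0.01. Hnf4g, a nuclear receptor of the differentiated villus epithelium and also the most abundant of the list, had normalized counts of 10511, 7163, 9285 and 6023 in controls and 15123, 10745, 8783 and 9786 in knockouts. Libraries 1 and 2 of the knockouts lay above all controls and the other two among them. The log2 fold change was 0.43 (SE 0.21; DESeq2, unadjusted p = 0.0422, adjusted p = 0.9998). The unadjusted p stayed below 0.05 in 12 of 18 alternatives, not in edgeR (0.0706) or limma-voom (0.0612), nor without floxed library 2 or 4 or knockout library 1 or 2. The value was 0.25 without knockout library 1 (DESeq2, unadjusted p = 0.211) and 0.71 in the deep libraries. The proliferation markers were higher at 4 of 12 genes at the unadjusted threshold, where 1.65% of all tested genes were, with a median of 0.27. This count fell to 0 without floxed library 2, to 1 without knockout library 1, and to 2 when any other single library except floxed library 3 was left out, while the median stayed between 0.24 and 0.40 and the list scores ran from −0.17 to 0.00 in controls and from 0.04 to 0.16 in knockouts. At 0 of the 12 genes taken singly did the genotypes separate, beside 2.12% of all tested genes. The part of these values in Hnf4g was not tested. The crypt markers had a median of −0.08.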

How the data were processed

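Jejunal mucosa RNA from 4 floxed control and 4 Adipoq-F2-KO samples was analysed, grouped by the sample titles. The authors trimmed reads with Trimmomatic, mapped them with STAR and assigned them to Ensembl genes with featureCounts, and the deposited values are these raw counts, neither normalized nor pooled. The submitters' processing notes list the mouse build GRCm38/mm10. Tool versions, annotation release and strand setting are not given in the sources used here. Symbols, positions and exon lengths came from GENCODE M21 (52125 of 56980 identifiers matched). The files held no gene lengths, so TPM used merged exon lengths of that annotation.

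Tested genes had 10 or more counts in 4 or more libraries. They were compared with DESeq2 1.42.0 in R 4.3.3 (genotype as the only term, two-sided Wald test, BH adjustment over all tested genes). Alternatives were edgeR 4.0.16, limma-voom 3.58.1, TMM factors, other count filters, a replicate block, marker scores as covariates, deep libraries alone and leaving out each library. The scripts were tested on simulated data. Over 12 pairs of libraries within a genotype, a chi-square statistic per gene ran from 5.80 (knockout libraries 3 and 4, both shallow) to 57.8, above sampling noise in every pair. The next lowest pair had 18.3. Pairs across genotypes were not compared. Whether each library was a separate mouse is not stated in the labels, and p-values measure only the spread between these samples. Intervals cover the counting error of reads and that spread, and reads carried no molecular identifiers.

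The 9 genes and the wider lists were chosen with earlier results of these data known. Named beside them were, in each wider list, the genes of lowest unadjusted p (below 0.05, 3 at most) and the gene of highest mean TPM, and the 5 genes most correlated with the mean of the 9. Centred log2 values used a pseudocount of 0.5. Protein motifs were planned and not searched, and results for some genes that this rule names are not reported here. The other marker lists had median log2 fold changes of −0.11 (proximal small intestine), −0.07 (distal small intestine), −0.91 (smooth muscle), 0.12 (endothelium and pericyte), 0.79 (B and plasma cell), 0.29 (T and intraepithelial lymphocyte), −0.11 (fibroblast), −0.02 (pancreas, 1 gene) and −0.29 (adipose). For the proximal, distal, smooth muscle, fibroblast and adipose lists the mean score ran the other way, from −0.19 in controls to 0.19 in knockouts for smooth muscle, −0.26 to 0.26 for fibroblast, −0.10 to 0.10 for adipose, −0.05 to 0.05 for distal and −0.01 to 0.01 for proximal, so no direction is given for them.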

Additional observations from a re-analysis of the deposited data

Results flagged for a closer look

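Of 34 groups of 4 libraries checked, covering 17 genes in both genotypes, 1 held a library far from the others, and chance alone marks about 1 in 20 such groups. Mep1a in floxed library 3 had a normalized count of 3275, while the other 3 controls ran from 1211 to 1326, a gap of 0.945 of the group's range. knockout libraries 3 and 4 held similarly high values of 2507 and 2878.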

How the results depend on the processing

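No member passed the adjusted threshold under any of the 18 alternatives. Of 162 fold changes of single members under them, 10 changed sign, to values of 0.13 or less in size. The number of members past an unadjusted p of 0.05, 1 as reported, was 2 without a count filter, with at least 10 counts in all 8 libraries and with the smooth muscle score as a covariate, 0 in the deep libraries, and 0 to 3 when single libraries were left out, with 3 without floxed library 3 and 0 when floxed library 4 or knockout library 3 was dropped. Over all tested genes the share past this threshold also moved, from 3.03% as reported to 1.74% without a filter, 3.61% with 10 counts in all 8 libraries, 3.2% with the smooth muscle score, 5.40% in the deep libraries and 8.14% without floxed library 3. The number of members whose genotypes did not overlap, 0 as reported, was 1 (Slc6a19) in the deep libraries and 0 to 1 when single libraries were left out, with 1 without knockout library 2. Fewer libraries separate more readily, and over all tested genes 12.4% separated downwards in the deep libraries and 2.60% without knockout library 2, beside 1.02% with all 8. The count of all genes past the adjusted threshold, 6 as reported, was 2 with edgeR, 1 with limma-voom, 3 without a filter, 10 with the villus enterocyte score and 10 with the distal minus proximal score as a covariate, 78 in the deep libraries, and 2 to 103 when single libraries were left out, the highest without floxed library 3. The median log2 fold change of the 9 genes stayed between −0.11 and 0.02. The causes were not tested.

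The labels name no pairing of the samples, and 4 same-numbered pairs are too few to decide whether the replicate numbers hold one. Same-numbered libraries correlated in their deviations from the group means at 0.54, 0.29, 0.02 and −0.41, and 2 of 4 libraries of each genotype correlated best with their own number. With the replicate block, 2 members passed the unadjusted threshold, as did 2.71% of all tested genes, and 11 genes passed the adjusted one, of which 4 were among the 6.

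Signs changed as follows. Anpep and Vil1 were 0.13 and 0.12 in the deep libraries. When single libraries were left out, Anpep ran from −0.17 (floxed 1) to 0.051 (floxed 3), Dpp4 from −0.17 (floxed 1) to 0.0088 (floxed 3), Mep1a from −0.050 (knockout 4) to 0.66 (floxed 3), Mep1b from −0.11 (floxed 1) to 0.020 (floxed 3), Ace from −0.20 (floxed 4) to 0.0074 (knockout 2), Slc15a1 from −0.076 (floxed 4) to 0.32 (floxed 3), Slc9a3r1 from −0.072 (knockout 2) to 0.060 (knockout 4) and Vil1 from −0.095 (knockout 2) to 0.024 (knockout 4).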
